A study of Mus musculus with 15 samples.

Results

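The 8 genes Baz2a, Baz2b, Setbp1, Ahctf1, Ash1l, Psip1, Satb1 and Arid3b were grouped as genes for binders of AT-rich DNA, though their binding was not measured here. They were chosen by gene symbol among the 21662 genes of the count tables, as candidates for compensation of a loss of Hmga1, and each symbol was present once in both tables. All 8 passed the filter on low counts in both experiments, where 13912 and 13098 genes were tested. RNA-seq was performed in mouse embryonic stem cells (ESC) of a mixed 129Sv-C57Bl/6 background, grown with LIF on feeder cells or gelatine. The KO experiment has 3 samples of the wild-type line (WT a, b and c), and each of 3 derived lines has 2 (a and b). These are the Hmga1 KO, a clone with frame-shift mutations made by Cas9, and the Hmga1 and Hmga2 add-backs, labelled as Hmga1 KO with Hmga1 or Hmga2 rescue, in which tagged cDNA was driven by the CAG promoter from 1 chromosomal site. The full-deletion experiment has 3 WT samples and 3 samples of a clone whose Hmga1 coding sequence was cut out with 2 further guides, here called the full deletion. Each genotype is 1 line, so a difference between genotypes cannot be told apart from one between clones.

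Hmga1 and Hmga2 are small chromatin proteins that contact the minor groove of AT-rich DNA through AT-hooks, short basic peptides built around the amino acids arginine, glycine, arginine and proline. The same peptide occurs in several large chromatin proteins, where it adds DNA contact to other activities such as remodelling, histone methylation or nuclear pore assembly. Satb1 and Arid3b recognise AT-rich DNA with other folds, Satb1 through CUT-type and homeodomain modules and Arid3b through its ARID domain.

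The 4 amino acids of the AT-hook core were searched for in the annotated proteins (GENCODE vM1, on NCBIM37, the assembly also named mm9). Of 18421 protein-coding genes in the count tables, 221 (1.20%) held at least 1 core and 19 (0.103%) at least 2. The core was found 4 times in Baz2a, 3 times in Ash1l and in Setbp1, 2 times in Psip1 and once each in Baz2b and Ahctf1, and in neither Satb1 nor Arid3b. Hmga1 and Hmga2 held 3 each, and only 10 genes of the annotation searched held 3 or more. For Hmga1 and for 5 members, 1 coding stretch each is shown, with the bases that code for the core in capitals, to let the member genes be read beside Hmga1. Each is an exonic coding sequence on mm9, 5′ to 3′ on the strand of the gene.
Hmga1, chr17:27697900-27697929, plus strand: aagagacctCGGGGCCGACCAaagggaagc
Baz2a, chr10:127553723-127553752, plus strand: aagcggggcCGAGGTCGGCCTcctaagatc
Ash1l, chr3:88787204-88787233, plus strand: aagcccaagAGAGGAAGACCTaaatccaag
Psip1, chr4:83112641-83112670, minus strand: cccaaaccaAGAGGCAGACCTaaagtggta
Baz2b, chr2:59786268-59786297, minus strand: gacggccgaAGAGGAAGACCAcccaatcca
Ahctf1, chr1:181682875-181682904, minus strand: cctaggaaaCGTGGTAGACCCaggaaggta
The same 4 amino acids are spelled by different codons from gene to gene. The cores start at residue 58 in Hmga1, 664 in Baz2a, 826 in Ash1l, 193 in Psip1, 823 in Baz2b and 1958 in Ahctf1, counted from the first residue of the annotated protein. A match to the core is a description of the sequence and does not show that the peptide binds DNA.

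The gene bodies of the members were themselves between 53.3% (Arid3b) and 60.3% (Ahctf1) AT, beside a median of 54.3% over 19319 genes with 1 annotated position. A share of the possible reads of some members matches a second place in the genome, and the authors placed each such read at random. Of the read-length windows that match within the gene, this held for 12.9% in Psip1, all with a second match on chromosome 7. It held for 4.11% in Baz2a, with a second match on chromosome 8. A further 126 windows of Psip1 matched only chromosome 7. For the other 6 members it was at most 0.0103%, so the Psip1 and Baz2a counts are the less certain ones.

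Summed gene counts ranged from 13465399 to 34952136 in the KO experiment and from 14832310 to 21708492 in the full-deletion experiment. Levels are given as CPM, counts scaled to a common library total with TMM factors within each experiment. The targeted gene was read first. Hmga1 had 464, 276 and 221 CPM in the WT samples and 217 and 96.1 CPM in KO a and b. It had 184 and 123 CPM in the libraries labelled Hmga1 add-back, which overlap the KO range, so that these counts do not show the added Hmga1. In the paper's Western blots Hmga1 protein was not detected in the KO and was comparable to WT in the Hmga1 add-back. The paper also describes a transcript in the KO that lacks an exon. Of the read-length windows that match within Hmga1, 81.5% also match chromosome 11. Hmga1 had 357, 310 and 355 CPM in WT and 12.3, 10.9 and 12.1 CPM in the full deletion. Hmga2 had 249 and 222 CPM in the Hmga2 add-back and between 12.8 and 23.8 CPM in all other samples. It had 23.2, 21.0 and 20.6 CPM in the full deletion, above the 17.7, 13.2 and 16.1 CPM of its WT. The log2 fold change was 0.46 there (SE 0.14, edgeR adjusted p = 0.0685) and -0.15 in the KO (SE 0.19, edgeR adjusted p = 0.794). Of the read-length windows that match within Hmga2, 29.5% also match elsewhere. All 8 ESC markers searched (among them Pou5f1 and Nanog) were detected in every group, with a summed level of 4489 to 5596 CPM per sample in the KO experiment, 3818 to 6198 CPM in WT of the full-deletion experiment and 3567 to 3607 CPM in the full deletion. The 4 neural markers (Pax6, Sox1, Tubb3 and Map2) summed to 127 to 154 CPM in WT and 100.3 to 143 CPM in the derived lines of the KO experiment, and to 145 to 155 CPM in WT and 126 to 127 CPM in the full deletion, and the part of these differences in the member results was not tested. The 7 feeder fibroblast markers read summed to 2.21 to 13.2 CPM, with Postn and Dcn at 0 in every group but WT of the KO experiment. One library, WT b of the full-deletion experiment, stood apart from its group. Its counts differed from those of WT a and WT c with a chi-square of 131 and 125 per degree of freedom, against 3.89 to 6.45 for every other pair within a group there. Fold changes of the members and calls of the gene lists in that experiment are therefore given with and without WT b. The fold change of Hmga2 is given with all 6 samples only. Pairs within a group of the KO experiment, which are of different batches, had 45.9 to 95.3.

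The members spanned a wide range of levels. Per length of exon (RPKM, CPM per kilobase), in WT of the KO experiment, Psip1 was highest with 126 ± 34.6 RPKM (SD, n = 3, as for the values that follow) and Ahctf1 had 98.2 ± 11.8 RPKM. These neighbours did not differ beyond their spread, and both lay above 94% of the genes tested. Baz2a followed with 23.4 ± 5.09 RPKM. Arid3b (8.71 ± 2.03 RPKM), Ash1l (6.98 ± 2.09 RPKM) and Baz2b (5.95 ± 1.70 RPKM) had overlapping levels near the middle of the genes tested. Satb1 had 1.38 ± 0.0772 RPKM and Setbp1 0.664 ± 0.119 RPKM, separated from each other and from the rest. In WT of the full-deletion experiment Psip1, Ahctf1, Baz2a and Arid3b again took the first 4 places, in that order, and Setbp1 (0.393 ± 0.104 RPKM) and Satb1 (0.288 ± 0.0337 RPKM) the last 2. In the bulk samples measured here, fewer cells that express a gene and less RNA per cell cannot be told apart.

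**Figure D1:**
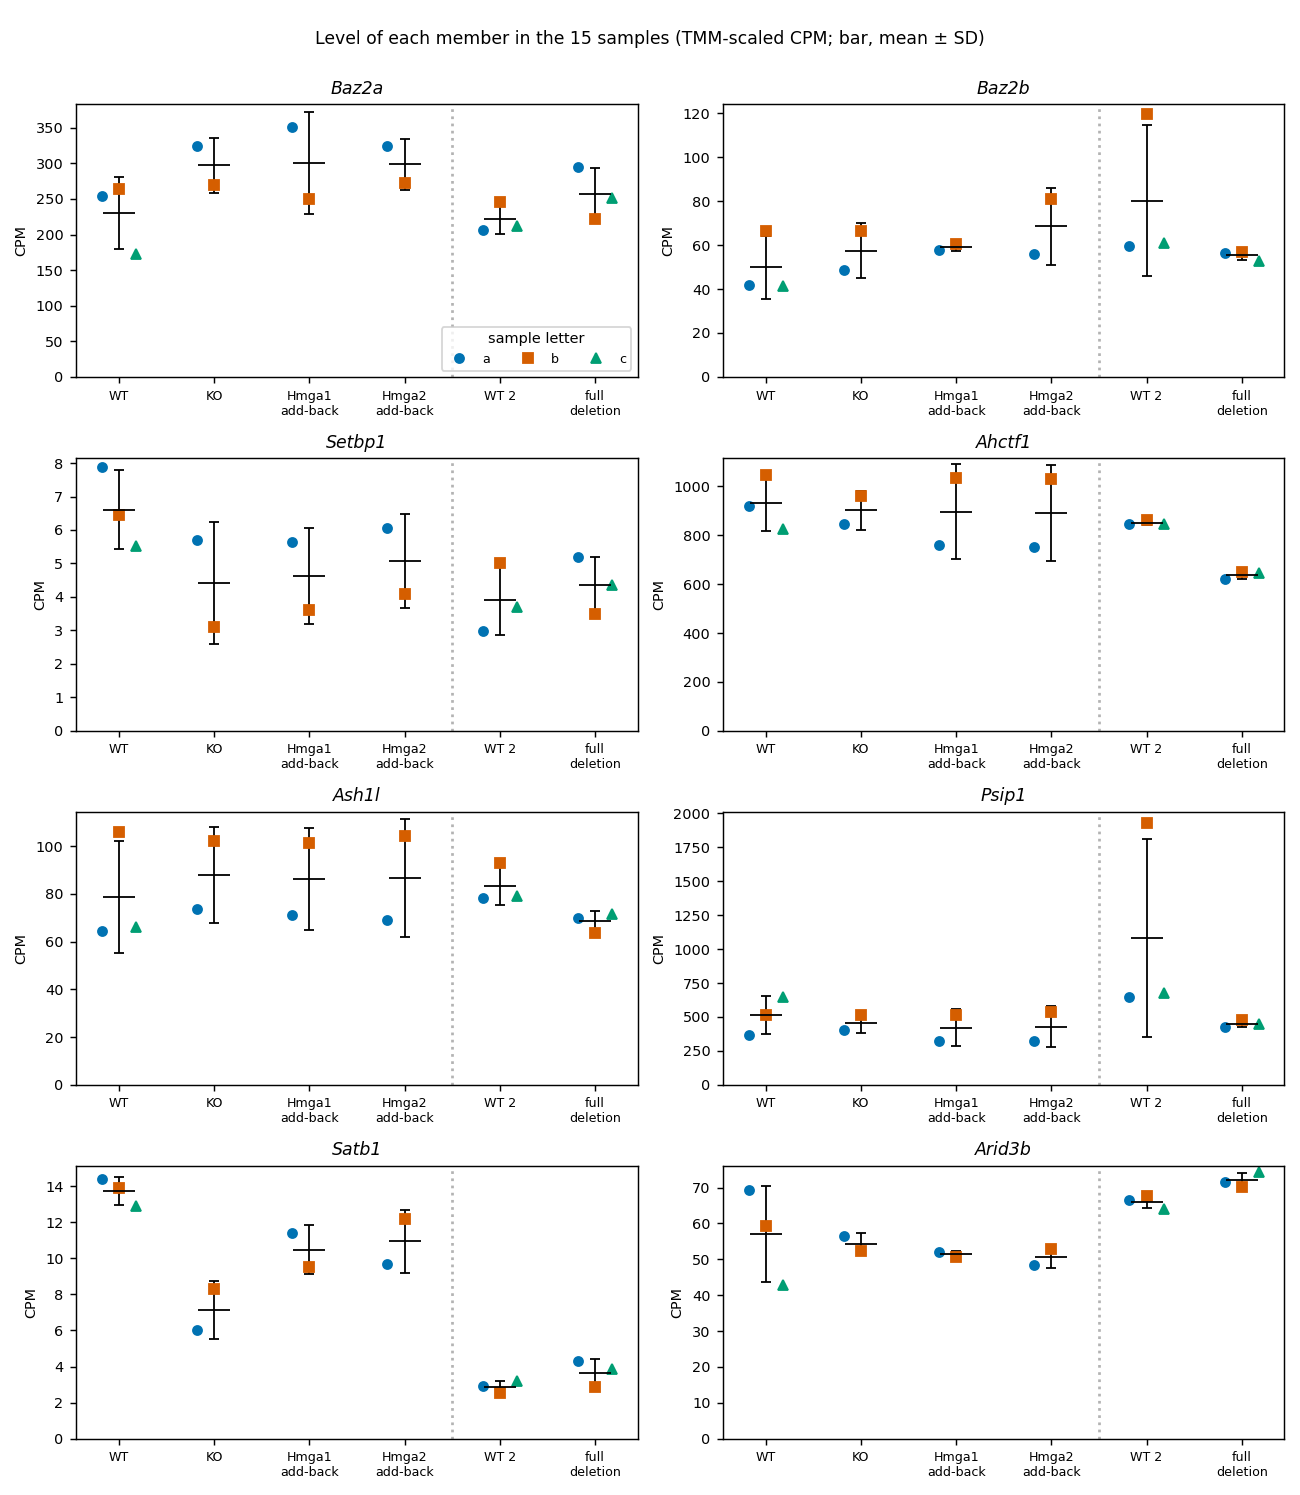
Levels of the 8 genes in CPM (y axis, from 0) in each of the 15 samples, by group (x axis, WT 2 is the WT of the full-deletion experiment, and the dotted line parts the 2 experiments). Symbols mark the sample letter, and black bars give the mean ± SD of 2 or 3 samples. Satb1 lies at 6.004 and 8.29 CPM in the KO and at 12.9 to 14.4 CPM in its WT, and Psip1 reaches 1926 CPM in WT b of the full-deletion experiment.

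Whether other AT-rich DNA binders are expressed more when Hmga1 is lost was asked first in the KO. None of the 8 genes passed an adjusted p of 0.05 in KO versus WT (edgeR's quasi-likelihood test in a model that holds the batch, adjusted over all genes), where 0.0647% of the genes tested did. WT c was the only sample of batch c, so the batch term took up its value. Fold changes and tests against WT in the KO experiment thus rested on WT a and b, though values of WT c are printed too. At an unadjusted p under 0.05 there were 2, Satb1 and Setbp1, and both had lower values in the KO, and 12.6% of all genes were under it. The fold changes of 4 members were above 0 and of 4 below, with a median of -0.03 on the log2 scale beside -0.0082 over all genes. The DESeq2 Wald test called 1 member, Satb1, and 1.43% of all genes, and limma-trend called none.

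Satb1, a genome organiser best known from T cells, showed the widest separation. WT a, b and c had 14.4, 13.9 and 12.9 CPM, against 6.004 and 8.29 CPM in KO a and b. The 2 KO samples lay below all 3 WT samples. Within batches the KO was at 41.6% of WT in batch a and at 59.7% in batch b. Its log2 fold change was -1.02 (SE 0.22, 95% interval -1.52 to -0.51), with an edgeR adjusted p of 0.14. It was called with the DESeq2 Wald test (adjusted p = 0.0199) and with edgeR without WT b (log2 fold change -1.13, adjusted p = 0.046), where 5.25% of genes were called. Over the 17 alternatives to this result the adjusted p ranged from 0.0199 to 0.889, the highest when KO a was left out.

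In the add-backs Satb1 had values between those of the KO and WT. The libraries labelled Hmga1 add-back had 11.4 and 9.52 CPM and the Hmga2 add-back 9.69 and 12.2 CPM, all above both KO samples and below all 3 WT samples. Against the KO the log2 fold changes were 0.59 (SE 0.22) and 0.63 (SE 0.22), with edgeR adjusted p = 1 and 0.877. Against WT they were -0.42 (SE 0.21, adjusted p = 0.429) and -0.39 (SE 0.21, adjusted p = 0.368). Satb1 was the 1 member of 8 for which all 6 samples of KO origin lay outside the range of the 3 WT samples, which was so for 8.84% of the genes tested. The comparisons of the 3 lines with WT share the WT samples, and those of the add-backs with the KO share the KO samples.

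Markers of primitive endoderm, a lineage that can arise beside ESC, also had lower values in the KO than in WT. The summed level of Gata4, Gata6, Sox7 and Sox17 was 40.8, 15.5 and 25.1 CPM in WT a, b and c of the KO experiment. In samples a and b it was 5.36 and 13.2 CPM in the KO. The libraries labelled Hmga1 add-back had 8.99 and 22.0 CPM and the Hmga2 add-back 10.7 and 7.75 CPM. In batch a every derived line was below WT. In batch b the KO and the Hmga2 add-back were below WT and the Hmga1 add-back above it. Within each add-back the sample with more Satb1 had the lower marker level. In the KO, sample a was below sample b in both, and among the WT samples WT a was highest in both. The Hmga2 add-back lay inside the KO range of the markers, and its Satb1 lay above the KO. In the full-deletion experiment the summed marker level was 4.18 to 4.47 CPM in WT and 4.41 to 6.09 CPM in the full deletion, and Satb1 was at 2.51 to 4.29 CPM there. None of the 4 markers was at 0 in any group. Their part in the Satb1 result was not tested.

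**Figure D2:**
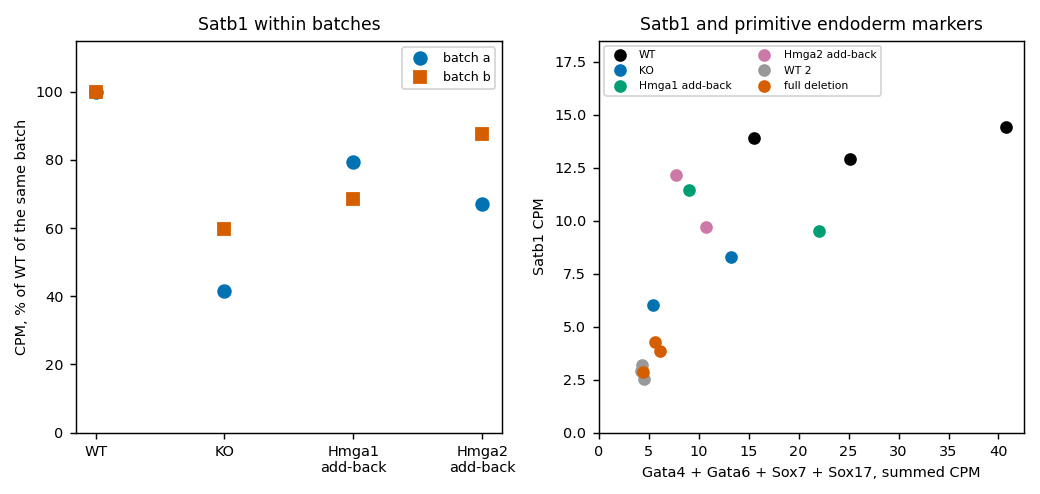
Left, Satb1 CPM as a percentage of WT of the same batch (y axis) in the lines of the KO experiment, with circles for batch a and squares for batch b, 1 sample each. Right, Satb1 CPM (y axis) against the summed CPM of 4 primitive endoderm markers (x axis) in the 15 samples, coloured by group. The KO samples sit at 41.6% and 59.7% of WT, and both samples of each add-back sit above them, and at the right the 6 samples of the full-deletion experiment lie together at the low end of both axes.

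Arid3b, the other member without an AT-hook core and a relative of Arid3a, had 69.2, 59.3 and 42.8 CPM in the WT samples and 56.5 and 52.2 CPM in KO a and b. The KO values fell inside the WT range. With the batch term its log2 fold change was -0.24 (SE 0.12, adjusted p = 0.456). It was -0.32 (SE 0.12, adjusted p = 0.339) in the libraries labelled Hmga1 add-back, at 52.1 and 50.7 CPM, and -0.34 (SE 0.12, adjusted p = 0.24) in the Hmga2 add-back, at 48.5 and 53.0 CPM. Within each batch all 3 lines were below WT, at 70.1% to 89.3% of it.

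Setbp1, a nuclear protein that binds the histone chaperone Set, was the member with the lowest level in the KO experiment. It had 249, 83 and 133 counts in the WT samples (7.87, 6.44 and 5.52 CPM) and 203 and 41 counts in KO a and b (5.70 and 3.12 CPM). WT c lay below KO a, so that the groups overlap. Setbp1 had a log2 fold change of -0.72 (SE 0.23, 95% interval -1.26 to -0.18, unadjusted p = 0.0148, adjusted p = 0.299). It was -0.65 (SE 0.23, adjusted p = 0.318) in the libraries labelled Hmga1 add-back and -0.51 (SE 0.23, adjusted p = 0.311) with Hmga2 added back. Against the KO the add-backs had log2 fold changes of 0.07 and 0.21, within their SE of 0.24 each.

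Baz2a, the large subunit of the nucleolar remodelling complex that silences rRNA genes, had 254, 264 and 173 CPM in the WT samples and 324 and 270 CPM in KO a and b. Both KO samples lay above the 3 WT samples, and Baz2a and Satb1 were the 2 members of 8 whose KO and WT values did not overlap, which was so for 23.5% of the genes tested. Within batches the KO was at 128% of WT in batch a and at 102% in batch b. Its log2 fold change was 0.19 (SE 0.14, 95% interval -0.13 to 0.50, adjusted p = 0.597). Its relative Baz2b, also a bromodomain protein, had 42.0, 66.6 and 41.5 CPM in WT and 48.6 and 66.3 CPM in the KO, with a log2 fold change of 0.10 (SE 0.15, adjusted p = 0.83). In the Hmga2 add-back Baz2b had 56.1 and 81.0 CPM and a log2 fold change of 0.35 (SE 0.15, unadjusted p = 0.0499, adjusted p = 0.295).

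Ash1l, a histone methyltransferase of the trithorax group, Psip1, which reads methylated chromatin and tethers Kmt2a complexes, and Ahctf1, which seeds nuclear pores on chromatin after mitosis, had narrow intervals in the KO. Ash1l had 64.4, 106 and 66.0 CPM in WT and 73.7 and 102 CPM in the KO. Its log2 fold change was 0.07, with a 95% interval of -0.18 to 0.33. Psip1 had 369, 517 and 649 CPM in WT and 404 and 511 CPM in the KO, and a log2 fold change of 0.06 (95% interval -0.22 to 0.35). Ahctf1 had 921, 1048 and 825 CPM in WT and 844 and 959 CPM in the KO, and a log2 fold change of -0.13 (95% interval -0.40 to 0.15). Over all 8 members, the highest upper bound of a 95% interval in the KO was 1.41-fold (Baz2a).

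The add-back lines gave no called member either. Against WT, 0.0431% of genes were called by edgeR in the libraries labelled Hmga1 add-back and 0.165% in cells given the tagged Hmga2 cDNA. In each of these comparisons 2 members had an unadjusted p under 0.05. These were Setbp1 and Arid3b in the first, where 13.3% of all genes were under it, and Baz2b and Arid3b in the second, where 16.9% were. Against the KO 0% and 0.0144% of genes were called, and Satb1 was the 1 member with an unadjusted p under 0.05 in each (0.0269 and 0.0212), beside 2.8% and 5.09% of all genes. Between the 2 add-backs 0.0144% of genes were called and no member had an unadjusted p under 0.05. The member values there differed by at most 0.17 on the log2 scale (Baz2b), with the widest upper bound at 1.60-fold (Setbp1). In each of these 5 comparisons DESeq2 and limma-trend also called none of the 8.

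**Figure D3:**
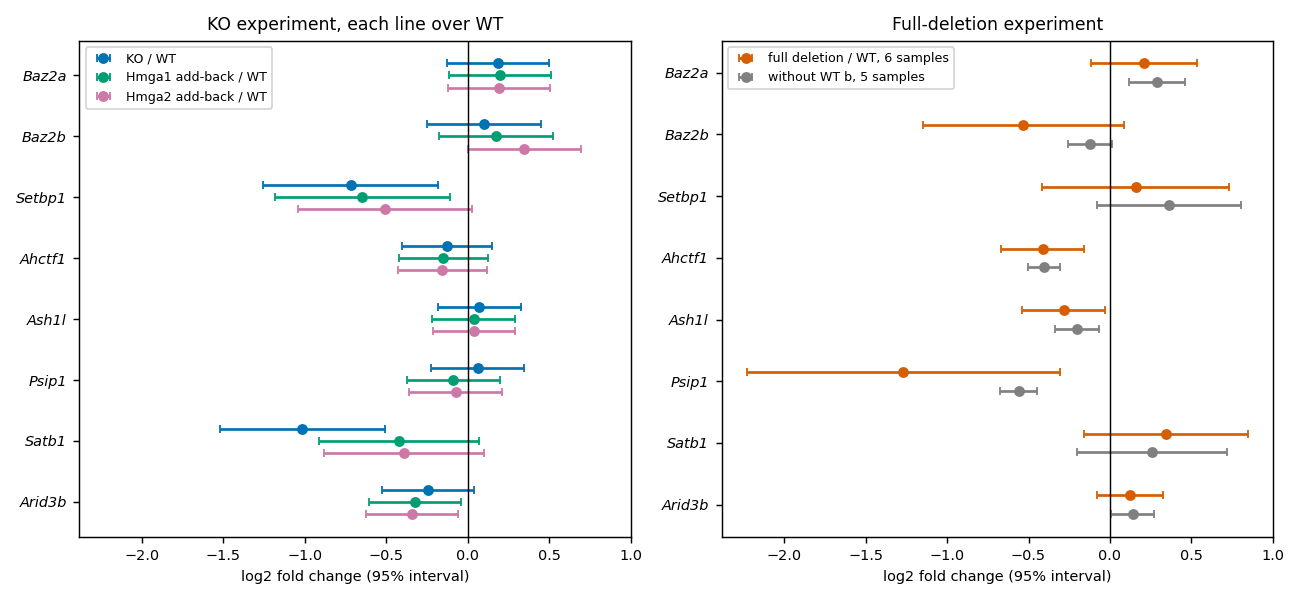
Log2 fold changes (x axis) of the 8 genes (y axis) with 95% intervals as bars. Left, the KO and both add-backs over WT of the KO experiment, and right, the full deletion over WT with all 6 samples (orange) and without WT b (grey). Satb1 in the KO has its whole interval below 0 (-1.52 to -0.51), and Psip1 moves from -1.27 to -0.56 when WT b is left out.

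Within the KO experiment several members differed more between batches than between genotypes. Ash1l had 64.4 to 73.7 CPM in the 4 samples of batch a and 101 to 106 CPM in the 4 samples of batch b. The 2 ranges do not overlap, and the ratio of b to a was between 1.39 and 1.65 in every line. Psip1 (ratio 1.27 to 1.67), Ahctf1 (1.14 to 1.37) and Baz2b (1.05 to 1.59) were also higher in batch b in all 4 lines. Counting ranges rather than lines, these 4 of the 8 members did not overlap between batch a and batch b, which was so for 33.3% of the genes tested. Setbp1 went the other way, at 0.547 to 0.818 of its level in batch a in every line, with ranges that overlap. Batch a held 30742898 to 34952136 counts and batch b 13465399 to 14585417, and the part of depth in these differences was not tested.

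**Figure D4:**
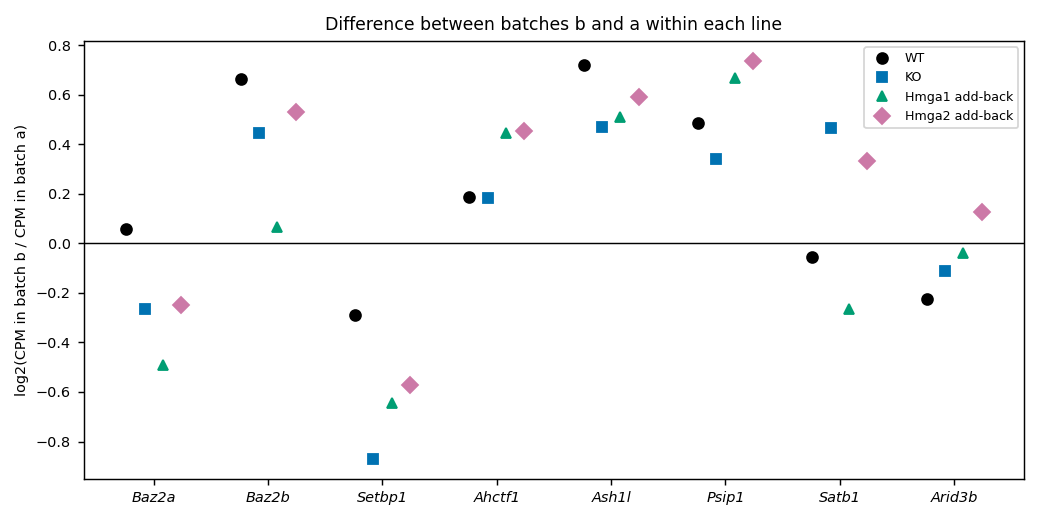
Log2 ratio of CPM in batch b over batch a (y axis) for each gene (x axis) in the 4 lines of the KO experiment, 1 sample per batch and line. Baz2b, Ahctf1, Ash1l and Psip1 lie above 0 in all 4 lines and Setbp1 below 0 in all 4, and the other 3 genes are on both sides.

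The full deletion repeats the question in another clone with its own WT samples. None of the 8 genes passed an adjusted p of 0.05 in the full deletion versus WT with all 6 samples, where edgeR called 8.25% of the genes tested. At an unadjusted p under 0.05 there were 3 (Psip1, Ahctf1 and Ash1l), all with lower values in the full deletion, and 37.0% of all genes were under it. The member median was -0.08 on the log2 scale beside 0.043 over all genes. Values of 5 members did not overlap between the groups, with Baz2b, Ahctf1, Ash1l and Psip1 below WT and Arid3b above it, and 51.3% of the genes tested did not overlap. The DESeq2 Wald test called 2 members, Ahctf1 and Psip1, and 24.7% of all genes, and limma-trend called no member.

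Ahctf1 was the most even of these. It had 845, 863 and 848 CPM in the WT samples and 620, 650 and 647 CPM in the full deletion. The lowest WT sample was above the highest sample of the full deletion by far more than the SD within groups (9.68 and 16.4 CPM). The log2 fold change was -0.41 (SE 0.11, 95% interval -0.67 to -0.16), with an edgeR adjusted p of 0.0542. Without WT b it was -0.40 (SE 0.048, adjusted p = 2.39e-06), with scaling by summed counts it was -0.13 (-0.45 relative to the median of all genes, which moved from 0.043 to 0.32), and over all alternatives the adjusted p ranged from 2.39e-06 to 0.436.

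Psip1 had 647, 1926 and 679 CPM in WT (a, b, c) and 425, 477 and 447 CPM in the full deletion. WT b was thus far above the other 2 WT samples, which themselves lay above the 3 samples of the full deletion. The log2 fold change was -1.27 (SE 0.41, 95% interval -2.23 to -0.31, adjusted p = 0.0786). Without WT b it was -0.56 (SE 0.054, 95% interval -0.67 to -0.45, adjusted p = 2.63e-07), smaller in size and with less spread, and its adjusted p ranged up to 0.228 over the alternatives.

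Ash1l had 78.3, 92.9 and 79.0 CPM in WT and 70.0, 63.7 and 71.7 CPM in the full deletion, with a log2 fold change of -0.28 (SE 0.11, adjusted p = 0.108). With scaling by summed counts it was 0.014, where the median of all genes moved from 0.043 to 0.32, and relative to that median it was -0.31. Baz2b had 59.5, 120 and 61.1 CPM in WT and 56.5, 57.0 and 52.8 CPM in the full deletion. As with Psip1, the WT value that stood out was that of WT b. Its fold change on the log2 scale was -0.53 (SE 0.26, adjusted p = 0.181) with it and -0.12 (SE 0.066, adjusted p = 0.141) without it.

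The other 4 members had values above WT on average. Arid3b had 66.6, 67.5 and 64.0 CPM in WT and 71.5, 70.1 and 74.4 CPM in the full deletion, groups that do not overlap, with a log2 fold change of 0.12 (SE 0.087, adjusted p = 0.316). Baz2a had 207, 246 and 212 CPM in WT and 295, 222 and 252 CPM in the full deletion, which overlap, with a log2 fold change of 0.21 (SE 0.14, adjusted p = 0.294). Setbp1 and Satb1 were low in both groups. Setbp1 had 63 to 82 counts in WT and 81 to 96 counts in the full deletion (log2 fold change 0.16, SE 0.25, adjusted p = 0.653). Satb1 had 61, 41 and 66 counts in WT and 71, 66 and 85 counts in the full deletion, or 2.89, 2.51 and 3.18 CPM against 4.29, 2.85 and 3.86 CPM. Its log2 fold change was 0.35 (SE 0.22, 95% interval -0.16 to 0.85, adjusted p = 0.269).

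Without WT b the same comparison called 4 of the 8 members. Psip1, Ahctf1 and Ash1l (log2 fold change -0.20, SE 0.065, adjusted p = 0.0184) were lower in the full deletion, in a fit that called 22.0% of all genes lower. Baz2a was higher (log2 fold change 0.29, SE 0.082, adjusted p = 0.0077), in a fit that called 20.5% of all genes higher. Setbp1 (log2 fold change 0.36, SE 0.21, adjusted p = 0.179) was not called by edgeR there. Neither was Satb1 (0.26, SE 0.22, adjusted p = 0.367) or Arid3b (0.14, SE 0.063, adjusted p = 0.0781). Over the alternatives the adjusted p ranged from 0.0184 to 0.93 for Ash1l and from 0.0077 to 0.707 for Baz2a.

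Whether the KO and the full deletion acted differently on a member was tested as an interaction over all 15 samples. None of the 8 passed an adjusted p of 0.05, and 0.375% of genes did, while 4 members and 18.7% of all genes had an unadjusted p under 0.05. For Satb1 the difference was -1.35 on the log2 scale (SE 0.31, 95% interval -2.03 to -0.67, unadjusted p = 0.00101, adjusted p = 0.107). For Psip1 it was 1.35 (SE 0.53, adjusted p = 0.243), for Setbp1 -0.86 (SE 0.36, adjusted p = 0.251) and for Arid3b -0.36 (SE 0.15, adjusted p = 0.258). The DESeq2 Wald test called Satb1 (adjusted p = 0.0116) and 2.52% of all genes. Without WT b of the full-deletion experiment edgeR called 2 members, Psip1 (0.66, SE 0.14, adjusted p = 0.0203) and Satb1 (-1.24, SE 0.31, adjusted p = 0.0402), and 5.28% of all genes. Adjusted p ranged from 0.0116 to 0.605 for Satb1 and from 0.0203 to 0.606 for Psip1 over the alternatives. For Baz2a the difference was -0.011 with a 95% interval of -0.49 to 0.47.

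The WT cells of the 2 experiments were not at the same Satb1 level to begin with. Satb1 had a mean of 13.7 ± 0.768 CPM (SD, n = 3) in WT of the KO experiment and 2.86 ± 0.335 CPM (SD, n = 3) in WT of the full-deletion experiment, a ratio of 4.80. The KO samples, at 6.004 and 8.29 CPM, were above every WT sample of the full-deletion experiment. Setbp1 had a ratio of 1.69 and Psip1 of 0.472 between the same WT groups, with WT b at 1926 CPM in the latter. The remaining 5 ranged from 0.624 (Baz2b) to 1.09 (Ahctf1). The 2 tables were scaled separately, and the experiment and its sequencing cannot be told apart, so these ratios are not tested.

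Other genes for AT-hook proteins or AT-rich DNA binders were read from a list of 30, of which 29 were tested (among them Kmt2a and Arid3a). None was called in the KO, with a list median of -0.0021 beside -0.0082 over all genes on the log2 scale. In the full deletion 1 of 29 was called, beside 8.25% of all genes, and the list median was -0.031 beside 0.043. That gene was Akna, which codes for an AT-hook protein found at centrosomes. It had 10.5, 7.48 and 9.06 CPM in WT and 17.1, 13.1 and 14.4 CPM in the full deletion, 3 samples that all lie above WT (log2 fold change 0.71, SE 0.17, adjusted p = 0.0466, with a range of 0.00111 to 0.184 over the alternatives). Values of 51.3% of the genes tested did not overlap there. In the KO Akna had 20.7 and 11.0 CPM against 13.2, 11.7 and 7.22 CPM in WT (log2 fold change 0.30, SE 0.22, adjusted p = 0.598). Without WT b of the full-deletion experiment 11 of the 29 were called, 4 higher and 7 lower, beside 20.5% and 22.0% of all genes.

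Partners of the members were read from a list of 17 genes, all of them tested. It holds the remodelling ATPases Smarca5 and Smarca1 that work with Baz proteins, the Setbp1 partner Set, nucleoporins of the Nup107 complex that Ahctf1 recruits, and Men1 and others linked to Psip1 or Ash1l. None was called in the KO, where the list median was -0.049 beside -0.0082 over all genes. Smarca1 was the 1 gene called in the full deletion, beside 8.25% of all genes, and the list median was -0.072 beside 0.043 over all genes. It had 65.9, 108 and 65.8 CPM in WT and 32.1, 36.5 and 33.1 CPM in the full deletion, with a log2 fold change of -1.24 (SE 0.21, adjusted p = 0.0271, with a range of 1.36e-08 to 0.152 over the alternatives). Without WT b it was -0.95 (SE 0.071, adjusted p = 1.36e-08), and 8 of the 17 partners were called there, all lower, in the fit that called 22.0% of all genes lower. In the KO Smarca1 had 31.3 and 51.7 CPM against 61.3, 72.4 and 88.0 CPM in WT. These groups do not overlap, which was so for 23.5% of the genes tested. The log2 fold change of Smarca1 was -0.75 there (SE 0.18, adjusted p = 0.171).

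The genes whose pattern was most like each member were taken from 13050 genes tested in both tables, by Pearson's r of log2 CPM over the 15 samples with each experiment centred on its WT mean. These values are a description, since samples share batches and libraries, and they were not computed without WT b of the full-deletion experiment. The closest were Ddx10 (r = 0.997) and Nasp (0.992) for Psip1, Rev3l (0.982) and Med13 (0.981) for Ash1l, Picalm (0.975) and Utp20 (0.967) for Ahctf1, and Bcl9 (0.974) for Baz2a. Baz2b was most like Fam178a (0.965) and Dph6 (0.960). The closest genes were less alike for Setbp1 (Zfp651, 0.884, and Sall2, 0.883), Arid3b (Med13l, 0.878, and Dda1, 0.873) and Satb1 (Cyb5b, 0.867, and Cachd1, 0.854). Among the members themselves, Baz2b, Ahctf1, Ash1l and Psip1 had r between 0.618 and 0.826 with each other, the same 4 genes that separated batch b from batch a.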

How the data were processed

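Gene counts of 15 RNA-seq samples were analysed. The authors trimmed 3 bases from each read, aligned to mm9 with QuasR and Bowtie, placed multi-mapping reads at 1 random position, and deposited raw counts of same-strand exonic reads per gene, with the exonic length of the gene. Here edgeR 4.0.16 (R 4.3.3, quasi-likelihood test, TMM, Benjamini-Hochberg over all genes) was run on genes whose counts averaged 10 or more, separately for the 9 and 6 samples. In the KO experiment the letters entered as batch (preparation day and flow cell, per the methods of the study). Deviations of same-letter samples from their group means correlated there (0.154 to 0.758), but WT c had 0.149 to 0.233 with the b samples of the derived lines. In a group of 2 samples the deviations of a and b mirror each other, so their correlations are not separate values. WT c was alone in its batch, so tests against WT there, and the interaction, used WT a and b of that experiment. No batch entered the full-deletion fit. DESeq2 1.42.0, limma 3.58.1 and other scalings, filters and samples were alternatives. RPKM used the deposited exonic length. Named genes were the 8 members, Hmga1, Hmga2, called genes of both lists (at most 5 each), and 2 genes most like each member, of which 1 is not reported here. Smarca5, Set, Men1, Kmt2a and Arid3a are named as examples of their lists. Members and lists were chosen with earlier results of these data known. The methods of the study give at least 2 separate cultures, harvested on different days, as the source of the RNA, and the labels do not tie samples to cultures, so that p-values cover only the spread between these samples. No table of protein sequences was used.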

Additional observations from a re-analysis of the deposited data

How the results depend on the processing

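With 2 or 3 samples a group, smaller changes of the members could pass unseen. In the full deletion the least precise members were Psip1 (SE 0.41) and Baz2b (SE 0.26), and Setbp1 and Satb1 had 41 to 96 counts in each sample. Each comparison had 0 called members, and this held under every alternative run except these. The DESeq2 Wald test called 1 in the KO, 2 in the full deletion and 1 in the interaction. Leaving out 1 sample gave 0 to 1, 0 to 4 and 0 to 2 there, all from the libraries named WT b. In the KO, leaving out WT b left WT a as the only WT sample in the comparison. The lists, with 29 and 17 genes tested, moved more, and the share of all genes called moved too. In the full deletion edgeR called 8.25% of all genes and the DESeq2 Wald test 24.7%. Without WT b edgeR called 22.0% lower and 20.5% higher there. In the KO edgeR called 0.0647% of all genes and the DESeq2 Wald test 1.43%. Of the related genes in the full deletion 1 was called, but 0 with summed counts, 3 with no filter on low counts, 9 with DESeq2 and 0 to 11 without 1 sample. Of the partners 1 was called there, but 2 with no filter, 5 with DESeq2 and 0 to 8 without 1 sample, and in the KO 0 were called, but 1 with DESeq2 and 0 to 1 without 1 sample.

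Samples of the full-deletion experiment share only a letter (same-letter correlations 0.0639, 0.0703 and -0.0546, and WT c was most like the full deletion a). With the letters as a block 0 members and 0 related genes were called. Without the block in the KO experiment 0 members were called, the log2 fold change of Psip1 in the KO went from 0.061 to -0.16, and that of Baz2a in the interaction from -0.011 to 0.17. No other direction or call of a member changed with the block.

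Fold changes of members, Akna and Smarca1 kept direction and call in 548 of 612 fits that left out 1 sample and in 488 of 510 others. Summed counts turned Ahctf1 (0.0032) in the Hmga1 add-back against the KO, Ahctf1 (0.015) and Ash1l (0.011) in the Hmga2 add-back against the KO, Ahctf1 (0.012) between add-backs, and Ash1l (0.014) in the full deletion. Between the add-backs Baz2a turned with DESeq2 size factors (0.0024), summed counts (0.014), a mean count of 50 (0.0086), DESeq2 (0.0023) and limma-trend (0.0035), Ahctf1 with a mean count of 50 (0.0055) and Ash1l with only the groups compared (-0.0014). In the interaction Baz2a turned with DESeq2 size factors (0.028) and DESeq2 (0.028). Leaving out 1 sample gave these ranges where a direction turned. In the KO Baz2b had -0.049 to 0.26, Ash1l -0.017 to 0.17 and Psip1 -0.083 to 0.20. In the Hmga1 add-back against WT Baz2b had -0.091 to 0.40 and Ash1l -0.059 to 0.13, and in the Hmga2 add-back Ash1l had -0.046 to 0.13 and Psip1 -0.20 to 0.056. Against the KO, in the Hmga1 add-back, Baz2a had -0.18 to 0.17, Baz2b -0.20 to 0.30, Setbp1 -0.080 to 0.28, Ahctf1 -0.11 to 0.054 and Ash1l -0.10 to 0.021. Against the KO, in the Hmga2 add-back, Baz2a had -0.012 to 0.025, Ahctf1 -0.12 to 0.072, Ash1l -0.10 to 0.034, Psip1 -0.28 to 0.013 and Arid3b -0.22 to 0.038. Between the add-backs Baz2a had -0.17 to 0.19, Baz2b -0.053 to 0.45, Ahctf1 -0.10 to 0.099, Ash1l -0.041 to 0.061, Psip1 -0.11 to 0.15, Satb1 -0.20 to 0.33 and Arid3b -0.15 to 0.13. In the full deletion Setbp1 had -0.014 to 0.36, and in the interaction Baz2a had -0.19 to 0.18. The cause of these changes was not tested.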
